A study of Mus musculus with 6 samples.

Results

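Kif1a, Kif5a, Syt1 and Mobp are 4 genes of nerve cells and myelin whose RNA ends stood out in the brain library of a survey of cut and decaying RNA in mouse tissues. They were chosen from measured values: each holds a 2 kb window in which earlier results on the same libraries had shown brain far above the other tissues. The members are the tags whose 5' end lies in 4 fixed regions of the mouse genome build mm9, which held 158 of the 839877 uniquely listed tags of the series. For scale, tags fell in 79112 strand-specific 2 kb windows of the genome. The libraries came from whole brain, lung, liver, kidney, ovary and spleen of adult mice of genetic background BALB-c, with 1 library per tissue and no treatment named. The labels give no sex, no genotype beyond the background and no number of animals behind a library. No tissue has a replicate, so the values below are levels and ratios with counting intervals and no test between tissues was made.

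The method, parallel analysis of RNA ends (PARE), reads a short tag from the 5' end of polyadenylated RNA that carries a 5' monophosphate. Such ends are left when an RNA is cut or has lost its cap, and enzymes that digest RNA from the 5' end produce further ones as they proceed, whereas an intact, capped messenger RNA is not ligated. A tag therefore marks where a decay product began, and its count is not the amount of the intact messenger RNA. Kif1a encodes a kinesin-3 motor that carries precursors of synaptic vesicles along axons. Kif5a encodes a neuronal heavy chain of kinesin-1, a motor of axonal transport. Syt1 encodes synaptotagmin 1, the calcium sensor for fast release of transmitter, and Mobp encodes a basic protein of central myelin made by oligodendrocytes.

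The tags near the 3' ends carry most of what follows, and a few of them show it. The sequences are tags as deposited, written in the sense of the RNA with T for U, and each starts at a 5' end. In Kif1a and Kif5a the most 3' brain tags hold the polyadenylation signal AATAAA, shown in capitals. In Mobp 8 sequences begin at 7 neighbouring bases, and the capitals mark the 15 nt that all of them share.
Kif1a, 5' end at 94912072, brain: ccaattaagaAATAAAtgtg
Kif1a, 5' end at 94912070, brain: aattaagaAATAAAtgtggct
Kif1a, 5' end at 94912062, brain: AATAAAtgtggctctcatgc
Kif5a, 5' end at 126662775, brain: taaAATAAAataacttcgat
Mobp, 5' end at 120090320, brain: gcatgcGCATTAACCCAGAGCg
Mobp, 5' end at 120090321, brain: catgcGCATTAACCCAGAGC
Mobp, 5' end at 120090322, brain: atgcGCATTAACCCAGAGCgc
Mobp, 5' end at 120090323, brain: tgcGCATTAACCCAGAGCgc
Mobp, 5' end at 120090323, brain, a shorter tag: tgcGCATTAACCCAGAGCg
Mobp, 5' end at 120090324, brain: gcGCATTAACCCAGAGCgcg
Mobp, 5' end at 120090325, brain: cGCATTAACCCAGAGCg
Mobp, 5' end at 120090326, brain: GCATTAACCCAGAGCgcgct

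Uniquely listed tags ranged from 29213 in ovary to 493121 in lung, and brain, with 33382, was among the shallow libraries. Levels are counts per 1000000 such tags (CPM). A count of 0 allowed up to 6.08 CPM in lung and 102.7 in ovary, the deepest and the shallowest library. These limits are taken at 3 tags and lie below the upper end of the exact interval for a count of 0, which is 126.3 CPM in ovary. All intervals are exact at the 95% level and hold counting error alone. They take each tag as a separate molecule, which copies made by PCR are not, so they may be too narrow. The tissue labels could be set against few marker genes. The kidney gene Kap was found by identity of tags with its RefSeq promoter sequence (build GRCm38.p6). It had 6200 CPM in kidney and 273.8 in lung. Liver, ovary and spleen had 1 to 3 Kap tags each (12.7 to 69.9 CPM), and brain had none. The surfactant gene Sftpa1 had 24 tags in lung (48.7 CPM) and none elsewhere. A count of 0 allows less than this level in kidney (18.5 CPM) and liver (38.0 CPM). It allows more in spleen (69.9 CPM), brain (89.9 CPM) and ovary (102.7 CPM). Lung was thus placed, by point value, above kidney and liver only. No neuronal, astrocyte or liver marker was found this way, so the brain label was not checked against markers other than the 4 genes.

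Kif1a (minus strand, chr1:94911001-94999000) had the most brain tags of the 4 genes. Its 45 tags in brain amounted to 1348 CPM (interval 983 to 1804). Lung had 6 tags (12.2 CPM, interval 4.47 to 26.5) and kidney 1 tag (6.16 CPM, interval 0.156 to 34.3), and liver, ovary and spleen had none. Brain was thus above every other library. The lung and kidney intervals overlap, and the limits in liver, ovary and spleen, from 38.0 to 102.7 CPM, lie above the lung level. The other libraries were therefore not put in order. Brain was 155 times the other 5 libraries pooled (interval 69.5 to 408), 110.8 times lung, at least 35.5 times liver and at least 13.1 times ovary. Here and below, whole tissues were sampled, and a count is not the amount of intact RNA. Fewer cells of a type, less RNA per cell and less cutting or decay of that RNA cannot be told apart.

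Kif5a (minus strand, chr10:126662001-126701000) had 31 tags in brain, 3 in lung and none in the other 4 libraries. The brain level was 929 CPM (interval 631 to 1318) and the lung level 6.08 (interval 1.26 to 17.8). The intervals do not overlap, while the limits of the libraries without a tag, 18.5 CPM in kidney and more elsewhere, lie above the lung level and leave these unordered. Brain was 249.6 times the other libraries pooled (interval 77.9 to 1276).

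Syt1 (minus strand, chr10:107934001-108450000) had 27 tags in brain, 2 in lung and 1 in liver. These are 809 CPM (interval 533 to 1177), 4.06 CPM (0.491 to 14.7) and 12.7 CPM (0.321 to 70.6). The lung and liver intervals overlap, so only brain was placed in the order. The ratio of brain over the other libraries pooled was 217 (interval 66.9 to 1120), and it was 109 when 3 lung tags listed at another location too were kept. Syt1 was also the only gene of the 4 with tags on the opposite strand, 2 in kidney.

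Mobp (plus strand, chr9:120058001-120092000) had 40 tags in brain, 2 in lung and none elsewhere. The brain level was 1198 CPM (interval 856 to 1632) against 4.06 in lung (0.491 to 14.7). Its ratio over the other libraries pooled, 483 (interval 125 to 4127), was the highest point value of the 4 genes, but all 4 intervals overlap. The 4 genes together gave 143 brain tags, 13 lung tags, 1 liver tag and 1 kidney tag. No uniquely listed tag lay within 10 kb outside the regions on their strand in any library.

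**Figure D1:**
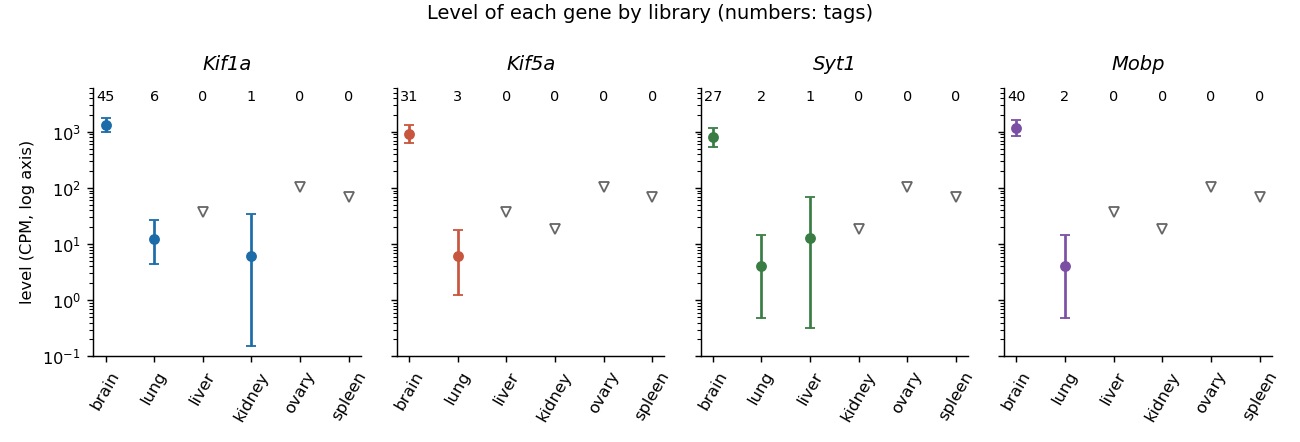
Level of each gene in each library in CPM on a log axis, with exact 95% Poisson intervals for counting error as bars and the tag count above each library. Open triangles mark the limit that a count of 0 allows. Brain lies between 809 and 1348 CPM, above every other value and limit.

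The ratios depend on lung, on the scaling and on how repeated tags are counted. Lung holds 13 of the 15 tags outside brain. Without lung the pooled ratio was 422 for Kif1a and 253.5 for Syt1, each over 1 remaining tag (intervals 72.05 to 17052 and 41.8 to 10377), and at least 97.0 for Kif5a and 125 for Mobp, which then had no tag left. With totals adjusted for composition (trimmed mean of M values), the ratios were 66.5 for Kif1a, 106.9 for Kif5a, 93.1 for Syt1 and 207 for Mobp. Counting each distinct end once, they were 104 for Kif1a, 141 for Kif5a, 147 for Syt1 and 305 for Mobp. Brain stayed higher in each case.

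The choice of the genes fixes this contrast, so it is a description. Strand-specific 2 kb windows give its background. Of 12337 windows with at least 10 tags over the 6 libraries, 965 (7.82%) were at least 4-fold higher in brain than in the other libraries pooled, and 49.99% had no brain tag at all. Only 326 windows had 10 or more brain tags, so most of the 965 rest on fewer. The fold makes no allowance for counting error. With at least 20 tags per window, 350 of 6960 (5.03%) passed. After adjustment for composition by trimmed M values, 299 windows (2.42%) passed that fold. The windows taken as those behind the choice, with the most brain tags in each region, all passed this fold, as the choice requires. Their ratios were 531.5 for Syt1, 350 for Mobp, 266 for Kif5a and 148 for Kif1a. Their ranks among all windows are not given, because a window with no tag outside brain has only a lower bound, taken at 3 tags.

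**Figure D2:**
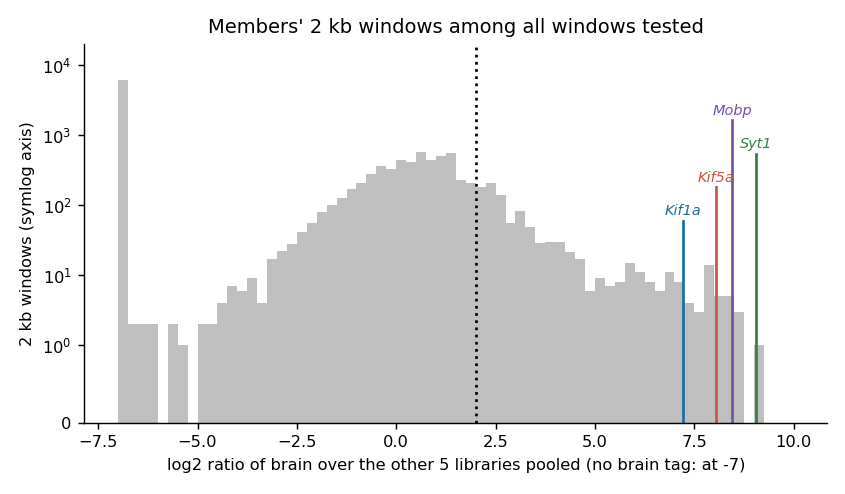
Histogram of the log2 ratio of brain over the other 5 libraries pooled for the 12337 windows of 2 kb with at least 10 tags, with counts on an axis that is linear below 1 and logarithmic above. The bar at -7 holds windows with no brain tag and the lowest ratios, the dotted line is the 4-fold mark, and the coloured lines (heights arbitrary) place the windows of the 4 genes at the right of the distribution. Windows with no tag outside brain stand at their lower bound.

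Part of each gene's signal lies outside its 2 kb window with the most brain tags, taken here as the window behind its choice. In brain 43 of 45 Kif1a tags, 22 of 31 Kif5a tags, 22 of 27 Syt1 tags and 29 of 40 Mobp tags fell in that window. The rest was 11 tags for Mobp (329.5 CPM), 9 for Kif5a (269.6 CPM), 5 for Syt1 (149.8 CPM) and 2 for Kif1a (59.9 CPM). Against these, the other libraries had none for Mobp and Kif1a, 1 for Kif5a and 2 for Syt1. By point value the rest was higher in brain for all 4 genes. It belongs to the same chosen regions, so it is no separate support. With 2 tags the Kif1a level is below the 89.9 CPM that a count of 0 allows.

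In every gene the brain tags lay mostly near the 3' end. Distances are genomic and run upstream from the most 3' tag of the 6 libraries, since no annotation of mm9 was used and the ends of transcripts and exons were not placed. Within 2 kb lay 95.6% of the Kif1a tags (43 of 45, interval 84.9 to 99.5), 92.5% for Mobp (37 of 40, 79.6 to 98.4), 90.3% for Kif5a (28 of 31, 74.25 to 97.96) and 88.9% for Syt1 (24 of 27, 70.8 to 97.7). The intervals overlap throughout, although the regions run from 34000 nt for Mobp to 516000 nt for Syt1. On these segments of equal length the brain levels were 644 CPM per kb for Kif1a, 554 for Mobp, 419 for Kif5a and 359.5 for Syt1. The intervals of the segment counts overlap, and the genes were not compared with each other by level per length. The windows with the most brain tags lie at the 3' ends, so these shares are partly set by the choice of the genes.

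The tags were packed more tightly than the 2 kb segment shows. The median distance from the most 3' tag was 119 nt for Kif1a, 213 for Syt1, 223 for Mobp and 383 for Kif5a. Within 500 nt lay 31 Kif1a, 26 Mobp, 19 Kif5a and 17 Syt1 tags, or between 61.3% and 68.9% of each gene. The profiles within those stretches differed in shape. Kif1a had 30 tags in the last 250 nt, 3 tags over the next 750 nt, and 9 tags in the 500 nt beyond. Kif5a had 13 tags in the last 250 nt and a further group of 5 between 1500 and 1749 nt. Mobp had only the 2 tags of its most 3' end at the very end, and its next tags began 124 nt upstream. Syt1 had 14 tags in the last 250 nt and between 1 and 3 in each of the next 5 stretches of that width.

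**Figure D3:**
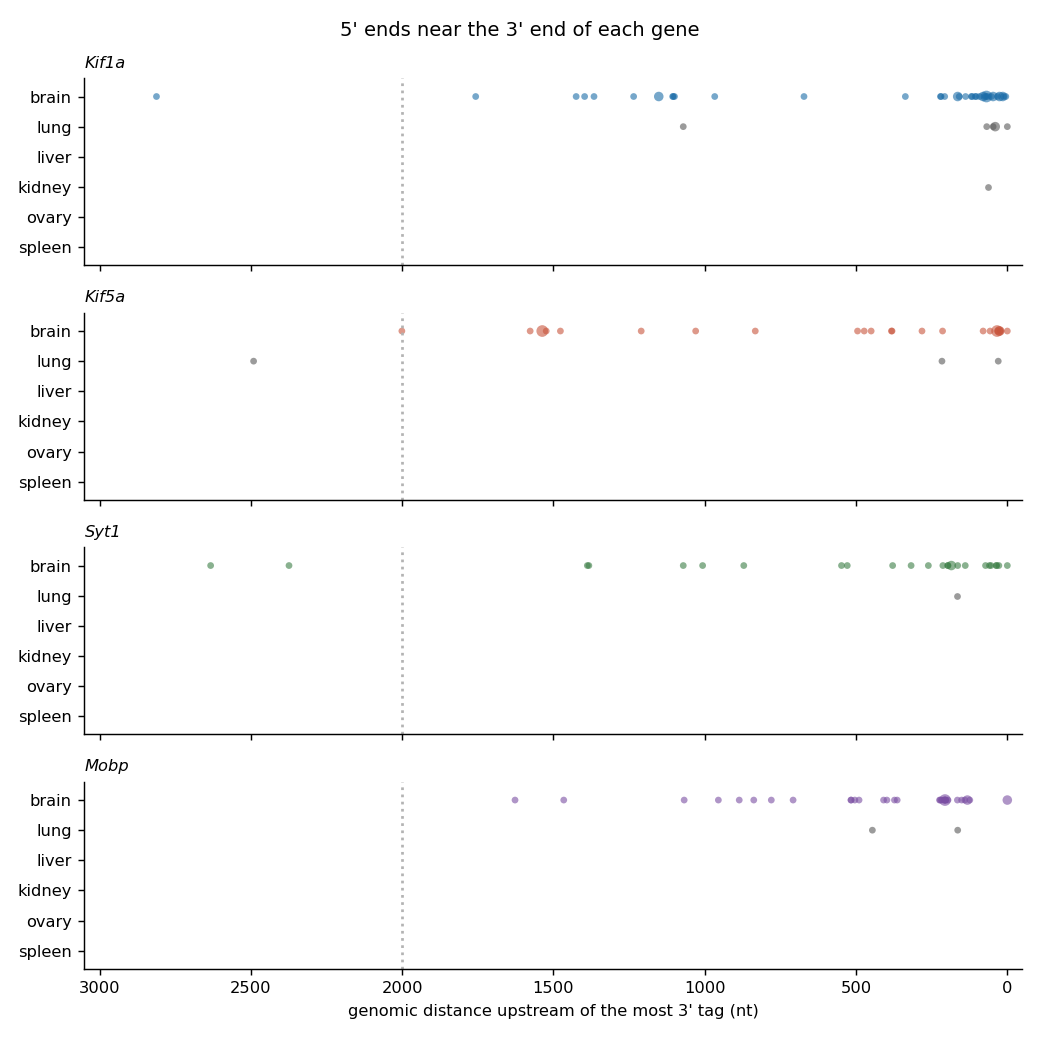
Position of each 5' end within 3000 nt of the most 3' tag, in nt along the genome, with 1 row per library and a point area that grows with the tag count. The dotted line marks 2000 nt. Brain tags crowd at the right in all 4 genes, and the few lung tags and the kidney tag mostly lie beneath them.

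**Figure D4:**
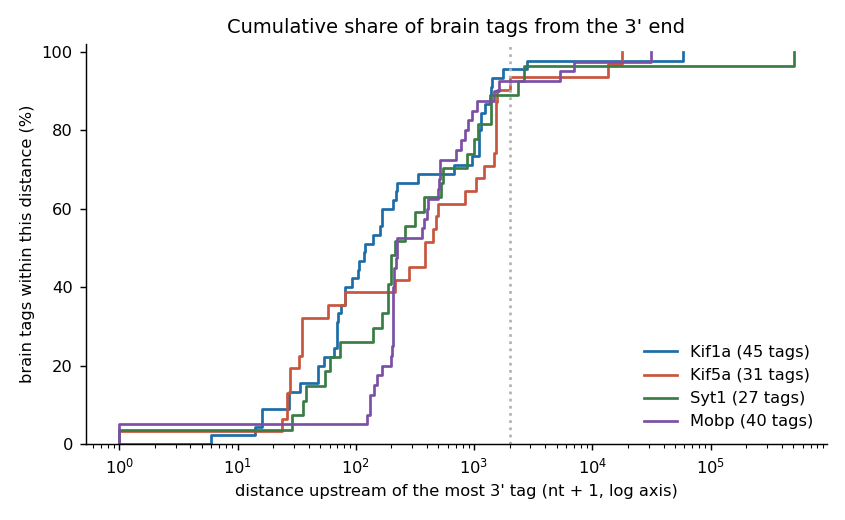
Cumulative share of each gene's brain tags by distance from the most 3' tag (nt plus 1, log axis). Between 88.9% and 95.6% of tags lie within 2 kb (dotted line), and the last tags reach 58366 nt in Kif1a, 17766 in Kif5a, 504493 in Syt1 and 31613 in Mobp.

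Single brain tags began far upstream. For Kif1a the tags beyond 2 kb lay at 2812 and 58366 nt, for Kif5a at 2001, 13614 and 17766 nt, for Syt1 at 2374, 2633 and 504493 nt, and for Mobp at 5371, 7033 and 31613 nt. Each of these ends had 1 tag. These 11 ends are too few to compare between genes.

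Most of the lung and kidney tags of these genes lay in the same stretches. All 6 lung tags of Kif1a were within 2 kb of the most 3' tag, 5 of them within 500 nt. For Mobp both lung tags lay within 500 nt, at 164 and 446 nt. Kif5a had lung tags at 30, 216 and 2491 nt, the last of them 490 nt from the nearest brain end. Brain ends are dense in these stretches and no share over all tags is given beside the next counts, so they are a description only. Of the 15 tags outside brain, 7 began within 2 nt of a brain end. Of these, 1 began at exactly the same base, 94912104 of Kif1a, with 2 brain tags and 1 lung tag. The lung tag and 1 of the brain tags read cctgtactgtttgtgtgcac, and the other brain tag was 1 nt longer. In Syt1 the lung tag at 166 nt lay among the brain tags, and the other lung tag and the liver tag shared an end 490779 nt upstream, at 108425535, where brain had no tag and the nearest brain end was 13714 nt away. That end reads tttcccttccactaattctc. With so few tags the 3' share of the other libraries is hardly bounded (lung Kif1a, 100% with interval 54.1 to 100; lung Syt1, 50% with interval 1.26 to 98.7), so a difference in 3' bias between tissues was not detectable at this depth.

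Most ends were seen once. In brain 30 of 37 Kif1a ends, 21 of 25 Kif5a ends, 25 of 26 Syt1 ends and 33 of 36 Mobp ends had 1 tag, against 96.1% of all brain ends. No end of the 4 genes had more than 3 tags. The strongest were 94912126 of Kif1a (3 tags, 2 of them acccgagtgttagctgtaggc and 1 a base shorter), 126662809 of Kif5a (3 tags, cagtgtgtatttacttggtgg), 107934941 of Syt1 (2 tags, ctgtgtgggttctctctgtgt) and 120090323 of Mobp (3 tags, in the list above). None of these 4 ends had a tag in another library. The brain ends of these genes were thus spread over many bases, with no dominant end.

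In Mobp a group of ends lay side by side. The 7 ends from 120090320 to 120090326 listed above follow each other without a gap and held 9 tags, 22.5% of the gene's brain tags. They lie 203 to 209 nt upstream of the most 3' tag. The longest run of neighbouring ends was 2 in Kif1a, 2 in Syt1 and 1 in Kif5a. Of the 27195 runs into which all brain ends fall, single ends included, this was the only one of 7 or more bases. Runs of that length were present in the other libraries too, 941 of them in lung, 145 in liver, 107 in kidney, 103 in spleen and 3 in ovary. As shares of each library's runs these are 0.422% in lung, 0.369% in liver, 0.11% in kidney, 0.486% in spleen and 0.013% in ovary, against 0.00368% in brain. The Mobp run had no tag in any library other than brain, but Mobp had only 2 tags outside brain. In a stretch of 30 nt around it lay 13 of the 40 brain tags (32.5%, interval 18.6 to 49.1), while the densest 30 nt held 9 of 31 tags in Kif5a, 9 of 45 in Kif1a and 5 of 27 in Syt1. The intervals of these shares overlap. The run was noticed in the data and not looked for beforehand.

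A length of 20 or 21 nt was found for 139 of the 143 brain tags (97.2%, interval 92.99 to 99.2) against 99.35% in the library; 3 of the 4 others were Mobp tags. Their G+C content was 47.7% against 45.7% in the brain library. The hexamer AATAAA was read on the RNA strand in 5 of the 143 tags (3.50%, interval 1.15 to 7.97) and in 4.40% of all brain tags, and the variant ATTAAA in 1 of 143, against 1.04%. The library shares of both hexamers lie within the intervals of the genes. Those 5 tags were 4 of Kif1a and 1 of Kif5a, and all began within 15 nt of the most 3' tag of their gene. No tag of Syt1 or Mobp held either hexamer, which says only that these letters are not in the tags.

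The 5' base of the tags was counted too. Of the 143 brain tags 24.5% began with A (interval 17.7 to 32.4), against 36.4% in the brain library and 34.15% without the strongest end of that library. Counting each end once, 26.6% of the 124 ends began with A (interval 19.1 to 35.3) against 30.1% of brain ends, which is within counting error. C began 27.1% of the brain library's tags, and 44.4% in Kif1a (interval 29.6 to 60.0), 32.5% in Mobp, 25.9% in Syt1 and 16.1% in Kif5a. T began 28.2% of the library's tags, and 51.9% in Syt1 (interval 31.95 to 71.3), 41.9% in Kif5a, 25.0% in Mobp and 24.4% in Kif1a. Of these 8 shares, those of C in Kif1a and T in Syt1 have intervals above the library's value. Counting each end of the library once, 30.09% began with C, which is inside the Kif1a interval. T began 30.8% of those ends, which is below the Syt1 interval. Shares by distinct end were not counted for single genes. G was rare in both the genes (10.5%) and the library (8.35%).

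Overlapping tags read the same sequence with 1 exception. Among positions read by more than 1 tag, 211 in Kif1a, 155 in Mobp, 129 in Syt1 and 85 in Kif5a, only position 94912068 in Kif1a was read differently. There 1 brain tag, tagggctctgtccaaCtaag, carried T16C relative to the base in 4 other tags, with positions counted from 1 at the tag's 5' end. The cause of this single difference was not tested.

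Identity of the regions was checked as far as possible without an annotation of mm9. In the RefSeq table of build GRCm38.p6 the 4 genes lie on the chromosomes of the regions, namely 1, 10, 10 and 9. The gene lengths there, 86585 nt for Kif1a, 513331 for Syt1 and 31747 for Mobp, fit inside regions of 88000, 516000 and 34000 nt. Kif5a, at 40654 nt, is longer than its region of 39000 nt, so part of that gene may lie outside. The promoter table gives the same strand for Kif1a, Syt1 and Mobp, and it does not list Kif5a. No tag matched the promoter sequences of those 3 genes. Of 62 other genes of motors, synaptic vesicles, the neuronal cytoskeleton and myelin, 45 had a promoter sequence. Only Qdpr among these had a matching tag, 1 in ovary. Across all 27025 genes with a promoter sequence, a matching tag was found for only 1021. Matches were thus rare in general, and their lack does not set these genes apart. The neighbouring pathway could not be read in this way.

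Windows elsewhere in the genome were ranked by how near their distribution over tissues came to that of the 4 genes. Likeness was the Euclidean distance between the shares of summed CPM in the 6 libraries and those of the 4 genes pooled, over 322 other windows with at least 10 brain tags. The closest were chr1:66488001-66490000, chr5:89070001-89072000 and chrX:133370001-133372000 on the plus strand, each with 10 brain tags and 1 lung tag, and each at a distance of 0.00498. Next came chr12:113032001-113034000 on the plus strand with 33 brain and 5 lung tags, and chr4:68422001-68424000 on the minus strand with 11 brain tags and 1 lung tag. None of the 5 had a tag in liver, kidney, ovary or spleen, while the 4 genes pooled had 1 in liver and 1 in kidney. Their genes were not named, as the sources used here pair no mm9 position with a gene.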

How the data were processed

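Tags were aligned with Bowtie to mm9, per the submitters' processing notes. Its version and settings: not given in the sources used here. Every deposited line holds a tag sequence and its read count, and the deposited score beside it is a display density that was not used. Minus strand sequences are written in reference orientation and were complemented. The 5' end is the first base on the plus strand and the last base on the minus strand. Between 9.76% and 15.5% of entries per library are sequences listed at 2 locations and were left out. The members and lists were chosen with earlier results of these data known. Planned counts of other neuronal and myelin genes needed an mm9 annotation or protein sequences, so they were not analysed here. Matching tags of 20 nt to RefSeq promoters replaced them and was chosen after the data were seen. Poisson, Clopper-Pearson and conditional binomial intervals used Python 3.11.15 with scipy 1.17.1. A count of 0 was taken to allow 3. On simulated data the window calls were checked for recovery of windows raised in brain, and the trimmed mean of M values for its effective totals. Windows called without being raised were counted there, but no limit was set on them. Named items were the 4 genes, each gene's strongest brain end, ends shared by libraries and the 5 windows nearest in profile. Other features were chosen after their values were seen. Alternatives covered multiply listed sequences, totals, distinct ends, left-out libraries, segment width and the 3' reference point.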

Additional observations from a re-analysis of the deposited data

How the results depend on the processing

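Of 78 alternatives tried on the 4 genes and the windows, 68 stayed within the counting interval of the stated value, or within 1.5 times for a count. Those intervals are wide, so this does not mean a small change. The Syt1 ratio stayed within its interval though it fell from 217 to 109 with multiply listed sequences kept. Adjustment for composition was not applied to the brain levels. No paired analysis was possible because each tissue has 1 library. Leaving out each other library in turn gave pooled ratios of 140 to 422 for Kif1a, 97.0 to 240.6 for Kif5a, 174 to 294 for Syt1 and 125 to 466 for Mobp; the Kif5a and Mobp minima, without lung, are lower bounds. The trimmed mean of M values gave 66.5 for Kif1a. With a 1 kb segment the 3' share was 73.3% for Kif1a and 64.5% for Kif5a. Measured from the outer edge of the region it was 71.1% for Kif1a, 70.97% for Kif5a and 72.5% for Mobp, since that edge lies 774 to 1471 nt beyond their most 3' tags. The windows called higher in brain were 350 of 6960 with at least 20 tags, where fewer were tested, and 299 of 12337 with the trimmed mean of M values. Alternatives meant for the list of other genes were not run. Outside brain no gene had more than 6 tags in a library, which limits the precision of each ratio and of positions there; only ovary was shallower than brain.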
